A study of Homo sapiens with 24 samples.

Results

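The genes described here are 47 genes of G2 and mitosis, given as a list of symbols and taken as rows of the deposited expression table. Of the 60564 rows of the table, all 47 symbols matched a row, and all 47 passed the filter of at least 1 FPKM (fragments per kilobase of transcript, scaled to the sequencing depth) in at least 3 libraries, which 15903 genes passed. They comprised 12 kinases, cyclins and kinase regulators, 4 checkpoint and APC/C genes, 7 kinetochore and centromere genes, 2 genes of the chromosomal passenger complex, 9 kinesins, 9 spindle and midzone genes and 4 genes of chromatin and control. RNA had been sequenced from a pair of human lines derived from neuroblastoma, the MYCN-amplified SK-N-BE(2) and SH-SY5Y, in which MYCN is not amplified. Each line had been infected with a lentivirus that carried a short hairpin RNA against NDUFS6 (knockdown), the NDUFS6 coding sequence (overexpression) or the empty vector matching either construct, and had then been selected with puromycin. NDUFS6 is a subunit of complex I of the mitochondrial respiratory chain. This gave 8 groups of 3 libraries, and all 24 libraries carried the same batch label. By the labels the libraries within a group are biological replicates. Whether these stem from separate infections is not said, and the p-values then reflect only how far such libraries vary, which may be technical.

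At the entry into mitosis, CDK1 bound to cyclin B is switched on, chromosomes condense, and motor proteins of the kinesin family build the spindle. The spindle checkpoint holds the anaphase-promoting complex (APC/C) back until each kinetochore is attached to microtubules, after which securin and cyclin B are degraded, the sister chromatids separate and the cell divides. Most of these genes are transcribed in G2 and M phase, under B-MYB, FOXM1 and the MuvB complex, and are silent in resting cells, and their level in a population is widely read as a mark of proliferation in neuroblastoma as in other tumours. In such bulk libraries, fewer cells in mitosis and less RNA per mitotic cell cannot be told apart.

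The promoters of mitosis genes are known for 2 elements, the cell cycle genes homology region (CHR), to which MuvB binds, and the CCAAT box, to which NF-Y binds. RefSeq promoter windows (build GRCh38.p14) were found for 41 of the 47 genes. Where a gene had more than 1 start, as 5 of the set did, the first listed was used. Those of AURKA, BIRC5, FOXM1, TPX2, TTK and UBE2C were not used here. In the 250 bases before the gene start, searched on both strands, a CHR written as TTTGAA or TTCGAA was present in 22 of 41 genes (53.7%), against 14.6% of 27305 genes in the whole table. A CCAAT box (CCAAT) was present in 34 of 41 (82.9%), against 33.0% of the table, and 21 of 41 (51.2%) held 2 or more, against 10.0%. Both elements stood together in 20 of 41 mitosis genes (48.8%) and in 5.24% of the table. Of the 36 DNA replication genes with a window, 2 (5.56%) held a CHR, 19 (52.8%) a CCAAT box and 30.6% 2 or more CCAAT boxes. In 15 of the mitosis genes a CHR lay within 70 bases before the start, which was not counted over the table. A GC box (GGGCGG) was found in 75.6% of the 41 genes, in 66.7% of the DNA replication genes and in 42.3% of the table. The windows below are shown because each of the 6 genes is described by role further on and holds both elements. They run 5' to 3' on the gene's own strand over the 200 bases before the RefSeq start, with the matches to CHR and CCAAT, on either strand, in capitals.
CDK1 (chr10:60778131-60778330, plus strand): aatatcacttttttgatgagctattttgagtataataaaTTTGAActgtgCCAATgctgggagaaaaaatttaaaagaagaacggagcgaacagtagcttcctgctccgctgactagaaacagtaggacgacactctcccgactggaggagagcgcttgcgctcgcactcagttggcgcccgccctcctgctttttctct
PLK1 (chr16:23678689-23678888, plus strand): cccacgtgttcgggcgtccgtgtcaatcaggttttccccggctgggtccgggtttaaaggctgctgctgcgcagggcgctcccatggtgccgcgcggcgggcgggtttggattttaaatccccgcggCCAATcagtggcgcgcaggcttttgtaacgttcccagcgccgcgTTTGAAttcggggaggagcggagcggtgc
CDC20 (chr1:43358781-43358980, plus strand): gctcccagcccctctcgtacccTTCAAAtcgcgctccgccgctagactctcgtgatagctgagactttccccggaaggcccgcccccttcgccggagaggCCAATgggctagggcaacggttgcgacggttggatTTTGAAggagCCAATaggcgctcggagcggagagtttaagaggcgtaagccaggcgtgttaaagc
KIF11 (chr10:92592930-92593129, plus strand): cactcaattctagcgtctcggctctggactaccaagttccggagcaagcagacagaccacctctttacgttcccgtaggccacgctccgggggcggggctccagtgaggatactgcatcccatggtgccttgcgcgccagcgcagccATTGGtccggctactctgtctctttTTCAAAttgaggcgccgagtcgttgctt
MKI67 (chr10:128126424-128126623, minus strand): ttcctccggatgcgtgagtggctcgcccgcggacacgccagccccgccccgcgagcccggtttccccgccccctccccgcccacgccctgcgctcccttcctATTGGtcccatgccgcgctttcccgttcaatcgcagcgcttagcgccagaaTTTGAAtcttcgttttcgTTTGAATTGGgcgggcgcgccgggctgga
TOP2A (chr17:40417897-40418096, minus strand): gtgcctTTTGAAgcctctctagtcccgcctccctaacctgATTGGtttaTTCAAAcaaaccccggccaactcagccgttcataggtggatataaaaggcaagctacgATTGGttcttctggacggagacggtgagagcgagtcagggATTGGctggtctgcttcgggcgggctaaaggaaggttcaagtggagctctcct
The PLK1 and KIF11 windows had the CHR 29 and 28 bases before the start, with a CCAAT box 73 and 53 bases before it. MKI67 had 2 CHR matches within 47 bases, the nearer of which overlapped a CCAAT box on the other strand, while TOP2A had its matches at 194 and 151 bases. These are matches of letters, not measured binding sites. After knockdown, the 20 genes with both elements had a median log2 change of -0.87 in SK-N-BE(2) and -1.19 in SH-SY5Y, beside -0.82 and -1.09 in the other 21 genes with a window.

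NDUFS6 itself followed the labels in all 8 groups. In SK-N-BE(2) its level was 1.33 ± 0.261 FPKM after knockdown and 11.2 ± 1.63 in the matching control (mean ± SD, n = 3), and was 8.36-fold lower. In SH-SY5Y it was 4.02 ± 0.939 FPKM against 11.5 ± 0.566. Overexpression raised it 19.0-fold in SH-SY5Y, to 208 ± 7.74 FPKM, but 1.34-fold in SK-N-BE(2), from 12.8 ± 1.03 to 17.2 ± 2.07 FPKM, so the overexpression comparison in SK-N-BE(2) rests on a small rise. The values of a library summed to between 249708 and 276091 FPKM, with 12607 to 14018 genes at 1 FPKM or more, and the number of reads is unknown. Among 8 adrenergic neuroblastoma markers, 7 reached 1 FPKM in all 24 libraries and TH in the 12 SK-N-BE(2) libraries only. T-cell CD3E and endothelial PECAM1 were at 0 in 23 of 24 libraries each, and the endothelial markers summed to at most 0.245 FPKM in any library.

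The 47 genes together made up between 0.215% and 0.640% of all FPKM in a library. In SK-N-BE(2) their summed level was 949.8 ± 68.4 FPKM after knockdown, 1735 ± 2.82 in the knockdown control, 1399.7 ± 22.4 after overexpression and 1194 ± 9.58 in the overexpression control. In SH-SY5Y the same sums were 599.7 ± 10.6, 1409 ± 3.73, 1378 ± 0.912 and 1323 ± 3.79 FPKM. The knockdown groups were thus the lowest in both lines, and in SK-N-BE(2) the 2 control groups also stood apart. TOP2A, the topoisomerase that untangles sister chromatids, had the highest mean over all 24 libraries (134 FPKM, range 55.5 to 212), followed by CENPF (69.1) and TPX2 (57.8). CDC25C, the phosphatase that activates CDK1, was the lowest (4.97, range 2.36 to 7.32), with CDCA3 (5.04) and KIF18A (7.61) above it. The lowest value of any of the 47 genes in any library was the 2.36 FPKM of CDC25C. In hg38 the 47 genes lie on 18 chromosomes, and by GENCODE release 29 those with the largest changes described below are at chr10:128096659-128126385 (MKI67, ENSG00000148773, minus strand), chr2:26764289-26801067 (CENPA, ENSG00000115163, plus strand), chr1:211658657-211675630 (NEK2, ENSG00000117650, minus strand) and chr5:163460203-163491945 (HMMR, ENSG00000072571, plus strand).

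**Figure D1:**
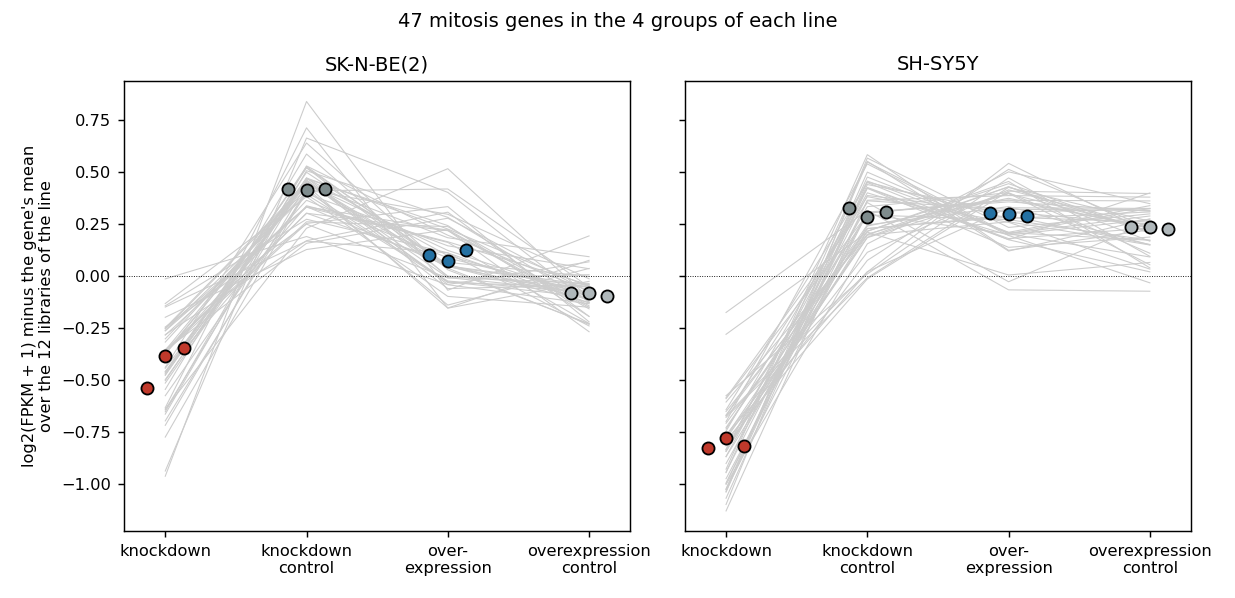
Levels of the 47 mitosis genes in the 4 groups of SK-N-BE(2) (left) and SH-SY5Y (right), as log2(FPKM + 1) minus the gene's mean over the 12 libraries of the line. Grey lines join the group means of each gene, and each point is the median over the 47 genes in 1 library; the knockdown libraries lie lowest in both lines, and the 2 control groups of SK-N-BE(2) lie apart by a median log2 difference of 0.50.

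Knockdown of NDUFS6 lowered almost the whole set in both lines. Against its own empty vector control, 46 of 47 genes fell in SK-N-BE(2) and none rose, where 28.3% of the 15903 tested genes were called lower and 55.7% in either direction (limma on log2(FPKM + 1), Benjamini-Hochberg adjusted p under 0.05, two-sided). In SH-SY5Y all 47 fell, beside a background of 29.6% called lower and 56.0% in either direction. The median log2 change was -0.83 in SK-N-BE(2) and -1.08 in SH-SY5Y, while the median over all tested genes was -0.01 in each line. Falls of 2-fold or more (log2 change of -1 or less) were seen for 13 of the 47 genes in SK-N-BE(2), beside 1.37% of tested genes, and for 28 in SH-SY5Y, beside 3.99%. In both lines the 3 knockdown libraries lay below the 3 controls without overlap for all 47 genes. That held for 31.8% of tested genes in SK-N-BE(2), where 30.3% lay above the controls without overlap, and for 34.0% in SH-SY5Y. The gene not called was PRC1, which bundles midzone microtubules, at -0.20 (SE 0.112, limma adjusted p = 0.133).

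The choice of control mattered in SK-N-BE(2). Against the empty vector control of the overexpression construct, 35 of the 47 genes were called lower after knockdown (25.2% of tested genes were) and the median was -0.32. CENPE, CCNB1, HJURP, UBE2C, CDC20, NUF2, TPX2, TTK, NEK2, KIF18A, HMMR and PRC1 were then not called, and the last 3 had log2 changes of 0.02, 0.10 and 0.12. In SH-SY5Y the same exchange left 46 genes called lower (31.7% of tested genes) with a median of -1.03, and ANLN alone was not called (-0.10). MKI67 had the largest fall against the other control in both lines, -1.15 in SK-N-BE(2) and -1.51 in SH-SY5Y.

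**Figure D2:**
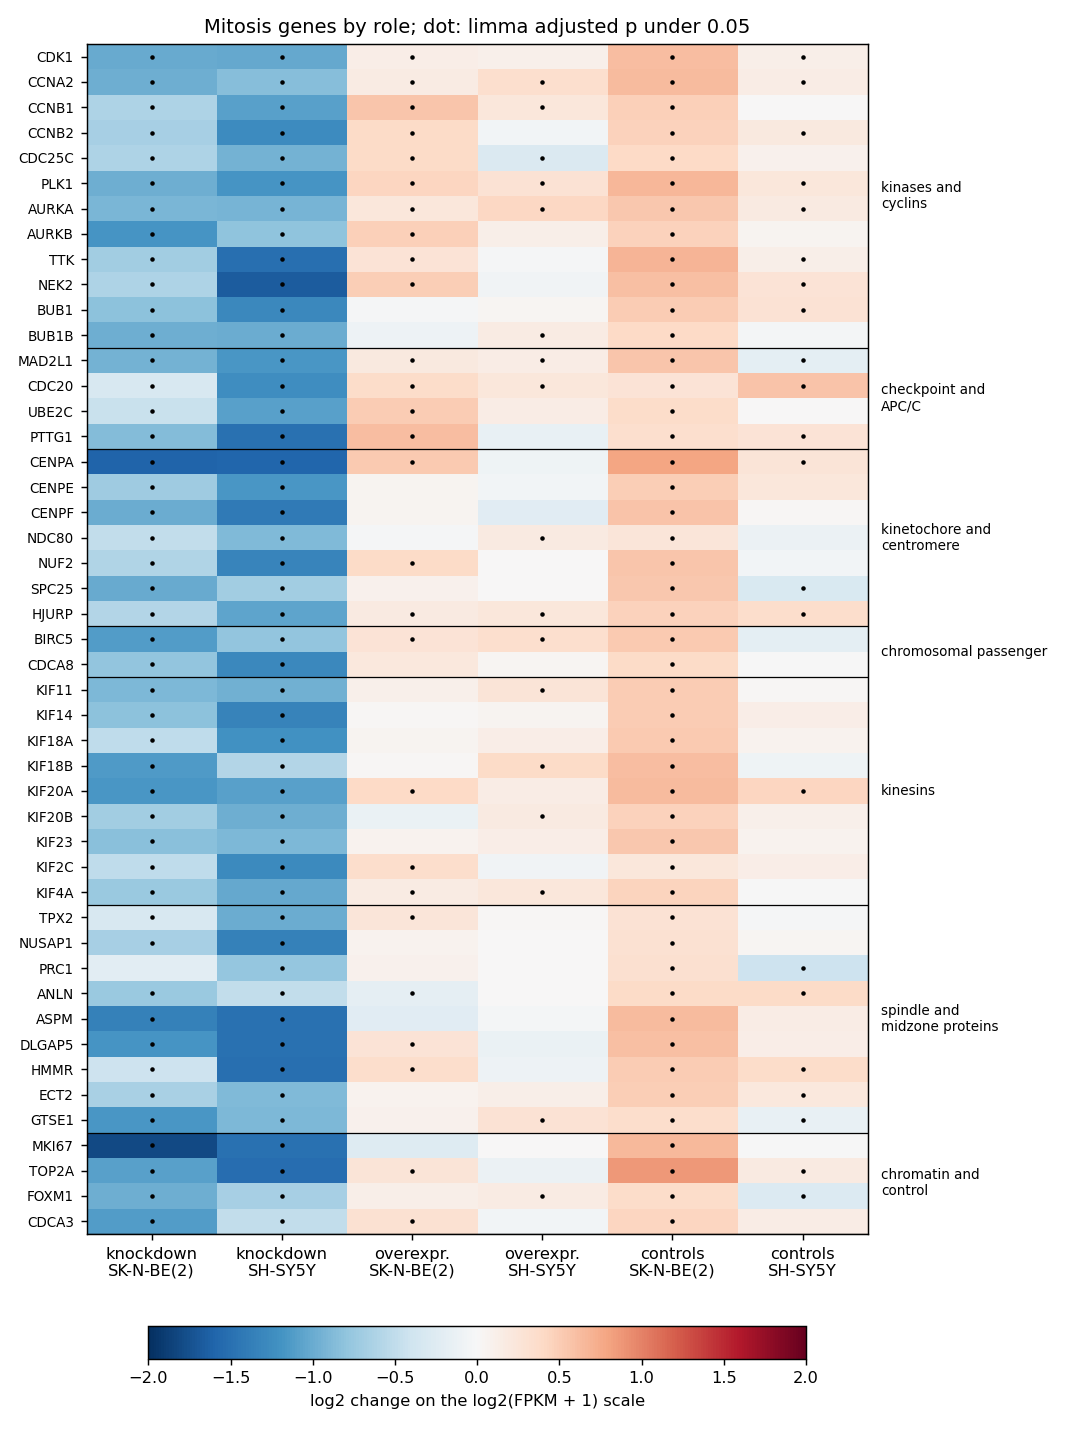
Log2 change of each of the 47 mitosis genes, in rows by role, in 6 comparisons: knockdown and overexpression against the matching control in each line, and knockdown control minus overexpression control ("controls"). Blue is lower, red is higher, and a dot marks a limma adjusted p under 0.05; the knockdown columns are blue throughout, from -0.20 (PRC1) to -1.80 (MKI67), and the control column of SK-N-BE(2) is red throughout, from 0.23 to 0.87.

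Among the kinases and cyclins, all 12 fell in both lines, with medians of -0.86 in SK-N-BE(2) and -1.06 in SH-SY5Y. CDK1, the kinase that drives entry into mitosis, measured 27.1, 30.2 and 28.7 FPKM in the knockdown libraries of SK-N-BE(2) and 59.5, 57.9 and 57.9 in the controls. In SH-SY5Y it measured 22.8, 20.7 and 22.8 FPKM against 45.9, 46.7 and 45.6. Relative to these controls, both lines lost about the same share of CDK1. The log2 changes were -1.004 (SE 0.0411, limma adjusted p = 7.59e-14) and -1.03 (SE 0.0411, limma adjusted p = 3.38e-14). CDK1 also differed between the empty vector controls of SK-N-BE(2), so this likeness depends on the control used. CCNB1, the B-type cyclin that CDK1 needs, was at 33.4, 44.6 and 39.4 FPKM after knockdown and 60.04, 61.5 and 59.1 in the controls of SK-N-BE(2). It was at 19.4, 19.5 and 19.5 FPKM against 41.6, 41.9 and 43.7 in SH-SY5Y. CCNB1 thus fell less in SK-N-BE(2) (-0.62) than in SH-SY5Y (-1.08), a difference of 0.46 between the lines (limma adjusted p = 0.000306). CCNB2, the other B-type cyclin, showed the same order (-0.66 and -1.26), and CCNA2, the A-type cyclin of S phase and G2, fell by 0.98 and 0.85 on the log2 scale.

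PLK1, the polo-like kinase of centrosome maturation and spindle assembly, had 8.82, 11.5 and 11.003 FPKM after knockdown and 21.0, 22.2 and 21.3 in the controls of SK-N-BE(2). Its 3 knockdown libraries in SH-SY5Y were at 6.77, 6.92 and 6.65 FPKM and the controls at 16.5, 16.9 and 16.4. The fall was 2.06-fold in SK-N-BE(2) and 2.44-fold in SH-SY5Y as a ratio of mean FPKM. AURKA, the spindle pole kinase, fell by 0.91 and 0.92 on the log2 scale. AURKB, the kinase of the chromosomal passenger complex, was at 6.77, 9.33 and 8.50 FPKM against 19.5, 20.3 and 19.5 in SK-N-BE(2), one of the 5 largest falls there (-1.18, SE 0.0982, limma adjusted p = 3.18e-09). In SH-SY5Y it was at 8.60, 9.79 and 10.7 FPKM against 17.6, 17.9 and 17.2 (-0.80). AURKB was therefore lowered more in SK-N-BE(2), unlike most of the kinases.

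NEK2, a centrosome-splitting kinase, had the largest fall of the 47 genes in SH-SY5Y. It measured 7.64, 7.70 and 6.82 FPKM after knockdown and 26.4, 24.8 and 25.5 in the controls (-1.66, SE 0.0534, limma adjusted p = 1.02e-15). Its SK-N-BE(2) libraries went from 20.3, 20.1 and 20.8 to 11.9, 12.9 and 14.2 FPKM (-0.62). TTK, the kinase that starts checkpoint signalling at unattached kinetochores, went from 16.2 ± 0.0926 to 5.06 ± 0.411 FPKM in SH-SY5Y (-1.51) and from 22.2 ± 0.458 to 13.3 ± 0.686 in SK-N-BE(2) (-0.69). Of the checkpoint kinases, BUB1 changed by -0.82 and -1.29 in SK-N-BE(2) and SH-SY5Y, and its relative BUB1B by -0.97 and -0.99. CDC25C changed by -0.61 and -0.94.

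All 4 checkpoint and APC/C genes fell in each line, with medians of -0.66 and -1.20. CDC20, the activator of the APC/C in mitosis, was at 26.6, 30.9 and 27.7 FPKM after knockdown and 35.9, 35.9 and 35.5 in the controls of SK-N-BE(2). In SH-SY5Y it was at 15.4, 16.6 and 15.3 FPKM against 40.2, 35.2 and 40.6. It was one of the 3 smallest changes in the former (-0.33, SE 0.0710, limma adjusted p = 0.000604) and fell 2.45-fold in the latter (-1.24). PTTG1, which encodes securin, measured 17.0, 22.1 and 17.7 FPKM against 33.7, 35.6 and 36.3 in SK-N-BE(2) (-0.87) and 13.7, 13.4 and 13.8 against 41.4, 40.5 and 39.1 in SH-SY5Y (-1.50). UBE2C, the ubiquitin-conjugating enzyme of the APC/C, changed by -0.45 and -1.08. MAD2L1, which encodes the checkpoint protein MAD2, changed by -0.94 and -1.16.

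The 7 kinetochore and centromere genes all fell in both lines. CENPA, the histone H3 variant that marks centromeres, fell 3.28-fold in SK-N-BE(2), from 28.2, 25.8 and 28.7 FPKM in the controls to 8.46, 8.14 and 8.64. In SH-SY5Y it fell 3.32-fold, from 20.5, 19.9 and 19.8 to 5.27, 6.90 and 5.94 FPKM. It was second by size in both lines, with log2 changes of -1.60 (SE 0.0793, limma adjusted p = 1.3e-12) and -1.59 (SE 0.0793, limma adjusted p = 1.01e-12), and the difference between the lines was -0.01. HJURP, the chaperone that deposits CENPA, changed less, by -0.59 and -1.05. CENPE, the kinesin that moves chromosomes to the metaphase plate, went from 14.3, 14.8 and 14.5 to 7.49, 8.24 and 9.95 FPKM in SK-N-BE(2) (-0.71), and from 11.8, 12.6 and 12.1 to 5.03, 5.05 and 4.51 in SH-SY5Y (-1.17). CENPF, which binds kinetochores and nuclear pores, changed by -0.99 and -1.42. Of the NDC80 complex, the main microtubule anchor of the kinetochore, NDC80 changed by -0.49 and -0.88, NUF2 by -0.59 and -1.33, and SPC25 by -1.001 and -0.69.

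The chromosomal passenger genes BIRC5 (survivin) and CDCA8 (borealin) moved with AURKB in being lower in all knockdown libraries. BIRC5 measured 15.9, 21.2 and 17.8 FPKM against 39.5, 40.4 and 41.7 in SK-N-BE(2) (-1.11) and 15.6, 16.0 and 15.7 against 28.7, 28.8 and 26.4 in SH-SY5Y (-0.79). CDCA8 had the opposite order of the lines, with -0.80 in SK-N-BE(2) and -1.28 in SH-SY5Y. All 9 kinesins fell in both lines, with medians of -0.83 and -1.03. KIF11, the motor that pushes spindle poles apart, was at 23.1, 23.1 and 24.7 FPKM against 43.9, 45.5 and 44.8 in SK-N-BE(2) and at 17.7, 17.8 and 15.9 against 33.9, 34.3 and 35.1 in SH-SY5Y. Its changes were close in size, -0.89 and -0.97. KIF20A, a kinesin of the midzone and of cytokinesis, fell most among the kinesins in SK-N-BE(2) (-1.17, beside -1.09 in SH-SY5Y), and KIF14, which acts in cytokinesis, fell most in SH-SY5Y (-1.33, beside -0.83). KIF18B, a partner of microtubule depolymerases, changed by -1.13 and -0.59, whereas KIF18A, which damps chromosome movement, changed by -0.51 and -1.20. The remaining kinesins were KIF2C (-0.51 and -1.27), KIF4A (-0.73 and -1.03), KIF20B (-0.69 and -0.97) and KIF23 (-0.84 and -0.90).

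Of the 9 spindle and midzone genes, 8 fell in SK-N-BE(2) and 9 in SH-SY5Y. ASPM, a spindle pole protein mutated in inherited microcephaly, went from 43.0, 43.2 and 42.4 to 16.4, 13.3 and 19.6 FPKM in SK-N-BE(2) (-1.34, SE 0.146, limma adjusted p = 1.58e-07) and from 35.7 ± 0.385 to 12.1 ± 0.893 in SH-SY5Y (-1.49). DLGAP5, which stabilises kinetochore microtubules, changed by -1.18 and -1.50. HMMR, a spindle protein and hyaluronan receptor, was at 19.95, 24.96 and 24.9 FPKM against 31.3, 31.4 and 30.9 in SK-N-BE(2), and at 10.7, 11.2 and 10.8 against 33.2, 32.6 and 32.9 in SH-SY5Y. Its change was -0.42 in the former and -1.51 in the latter, the widest gap between the lines. TPX2, the activator of AURKA on the spindle, was likewise little changed in SK-N-BE(2) (-0.32) and at -0.999 in SH-SY5Y, and NUSAP1, a microtubule bundler, changed by -0.67 and -1.36. ANLN, the cytokinetic scaffold anillin, had one of the smallest falls in SH-SY5Y, from 30.2, 28.5 and 29.8 to 20.5, 20.6 and 21.0 FPKM (-0.49), and changed by -0.74 in SK-N-BE(2). ECT2, the exchange factor that activates RhoA at the cleavage furrow, changed by -0.65 and -0.89, and GTSE1, a microtubule-binding protein of G2, by -1.16 and -0.89. PRC1 fell by 0.78 on the log2 scale in SH-SY5Y, where its 3 knockdown libraries spread most of all genes of the set, at 9.08, 11.5 and 7.08 FPKM.

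MKI67, which encodes the proliferation marker Ki-67, showed the largest fall of the set in SK-N-BE(2). It measured 20.2, 17.3 and 25.02 FPKM after knockdown and 73.2, 75.3 and 74.4 in the controls, a 3.57-fold difference (-1.80, SE 0.159, limma adjusted p = 8.13e-09). In SH-SY5Y it measured 20.9, 21.5 and 17.6 FPKM against 57.6, 57.9 and 58.1 (-1.49, SE 0.159, limma adjusted p = 1e-07). The knockdown libraries of the 2 lines thus had near-equal MKI67 levels, from different control levels. TOP2A was at 90.6, 97.6 and 108 FPKM against 208, 208 and 212 in SK-N-BE(2) (-1.08) and at 59.3, 59.1 and 55.5 against 171, 168 and 168 in SH-SY5Y (-1.53). FOXM1, a transcription factor for many of these genes, was at 15.1, 18.6 and 16.6 FPKM against 34.2, 32.7 and 34.3 in SK-N-BE(2) (-0.97) and at 13.9, 14.5 and 14.2 against 22.7, 23.3 and 23.6 in SH-SY5Y (-0.67). CDCA3, a regulator of WEE1 turnover at entry into mitosis, fell 2.49-fold in SK-N-BE(2), from 8.50 ± 0.197 to 3.41 ± 0.361 FPKM, and 1.55-fold in SH-SY5Y, from 4.33 ± 0.266 to 2.80 ± 0.322 FPKM.

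**Figure D3:**
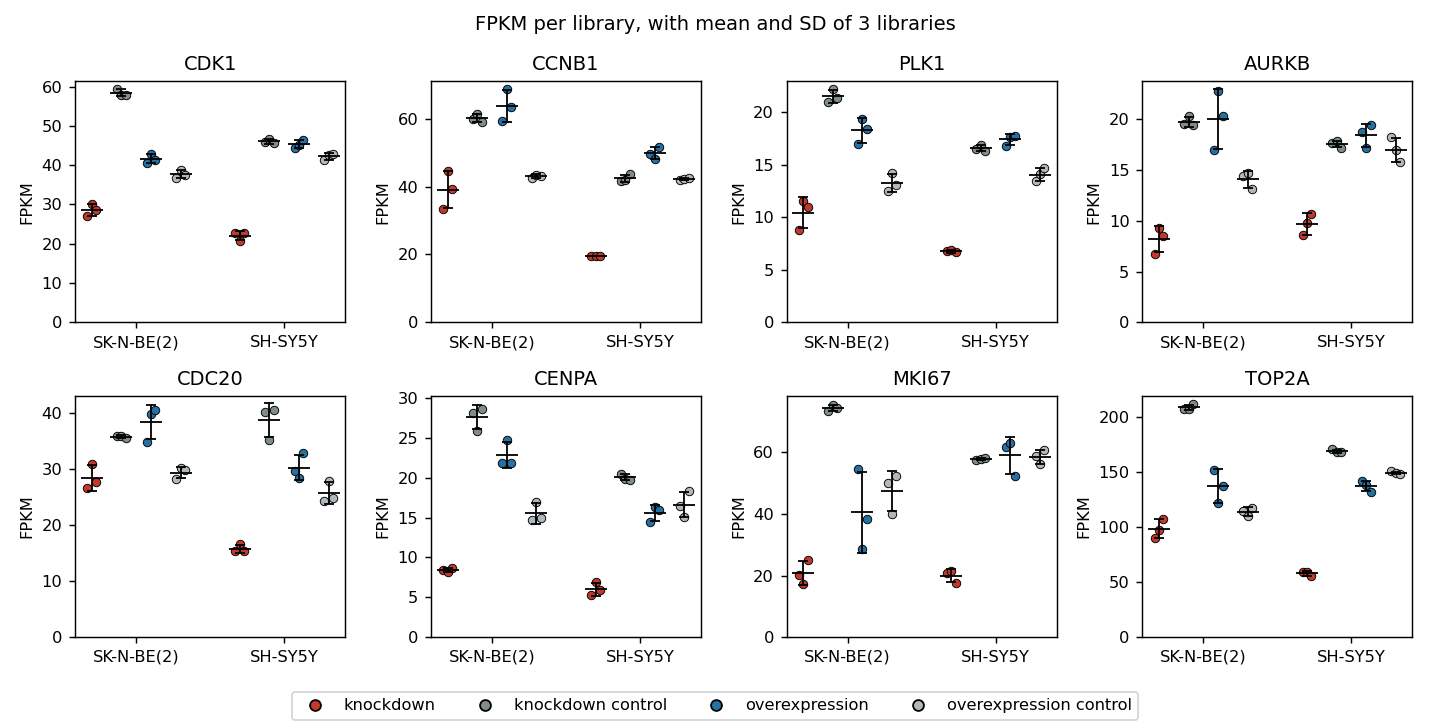
FPKM of CDK1, CCNB1, PLK1, AURKB, CDC20, CENPA, MKI67 and TOP2A in each of the 24 libraries (points), with the mean and SD of the 3 libraries of a group (bars); red is knockdown, blue overexpression, and dark and light grey their controls. MKI67 lies between 17.3 and 25.02 FPKM in all 6 knockdown libraries, and its 3 overexpression libraries in SK-N-BE(2) spread from 28.6 to 54.6 FPKM.

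Over the whole set, the sizes of the falls in the 2 lines were hardly related. Some of the largest falls were shared, as those of MKI67, CENPA, ASPM and DLGAP5, and others were not, as those of NEK2 and AURKB. Across the 47 genes, the knockdown changes in SK-N-BE(2) and SH-SY5Y, which share no library, had a Pearson r of 0.07 and a Spearman rho of -0.04, given as a description over genes, which are not independent. The interaction of line and knockdown was called for 36 of the 47 genes, beside 55.8% of tested genes. For 28 of them the fall was smaller in SK-N-BE(2) (29.5% of tested genes differed in that direction), and for 8 it was larger (26.3% did). HMMR had the widest difference (1.10, SE 0.0915, limma adjusted p = 3.55e-09), followed by NEK2 (1.05), CDC20 (0.91) and TTK (0.81). In the other direction stood CDCA3 (-0.62, SE 0.0949, limma adjusted p = 1.37e-05), KIF18B (-0.55), AURKB (-0.38) and BIRC5 (-0.33), with SPC25 (-0.31), FOXM1 (-0.30), GTSE1 (-0.27) and ANLN (-0.25). The difference was not called for CDK1 (0.02), AURKA (0.01), BUB1B (0.02), CENPA (-0.01), KIF11 (0.07), KIF23 (0.06), KIF20A (-0.08), CCNA2 (-0.13), PLK1 (0.19), ASPM (0.14) and MKI67 (-0.31). Of the panel of role genes it was called for BUB1 (0.47), CENPE (0.46) and TOP2A (0.45) besides those named. The lines differ in the depth of the NDUFS6 knockdown. The 2 empty vector controls differ over the whole set in SK-N-BE(2), and for some genes in SH-SY5Y, CDC20 and HMMR among them. Whether both lines carried the same hairpin is not given by the sample titles. The part of any of these in the line differences was not tested. Scaling each library to a fixed sum moved the median difference of all tested genes from 0.01 to 0.16, and the counts for the set to 33 smaller and 2 larger falls in SK-N-BE(2).

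**Figure D4:**
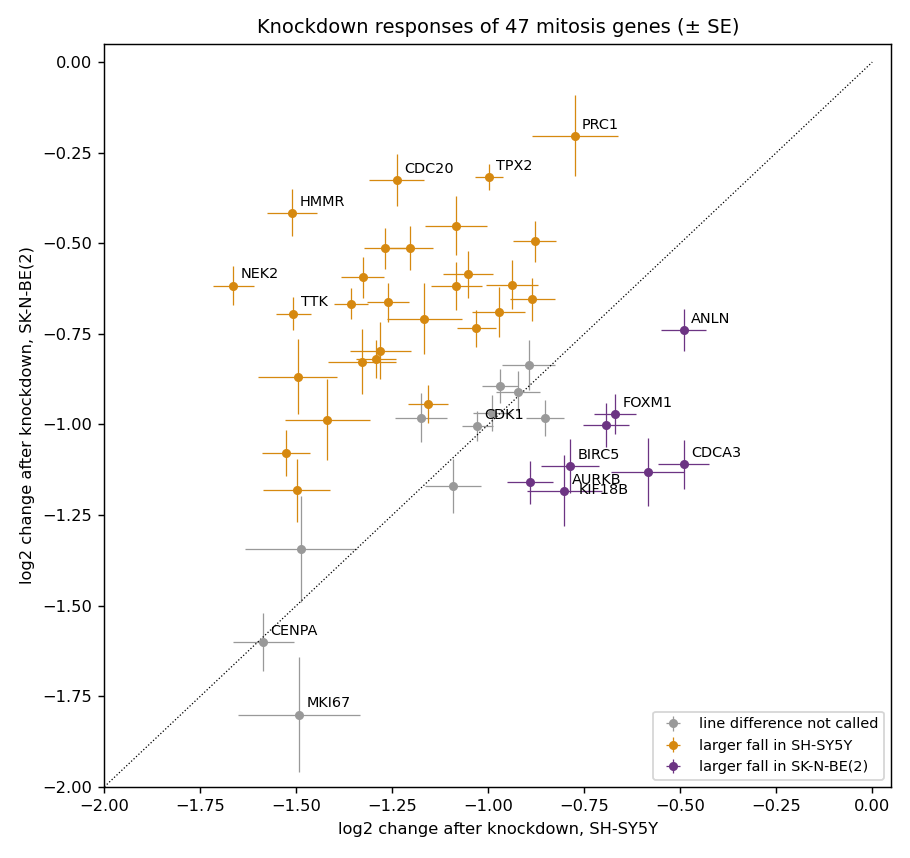
Log2 change after knockdown in SH-SY5Y (horizontal) and SK-N-BE(2) (vertical) for the 47 mitosis genes, with limma SE bars; the dotted line marks equal change. Orange genes fell more in SH-SY5Y (28 genes), purple genes more in SK-N-BE(2) (8 genes) by the interaction test, and grey genes were not called.

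The empty vector controls of SK-N-BE(2) differed in this set. All 47 genes were higher in the knockdown control than in the overexpression control, where 15.5% of tested genes were called higher, and for all 47 the 3 libraries of each group did not overlap, as for 22.8% of tested genes. The median log2 difference was 0.50, against -0.01 over all tested genes. TOP2A differed most (0.87, 209 ± 2.18 against 114 ± 3.84 FPKM, limma adjusted p = 2.15e-09), then CENPA (0.79), TTK (0.68), PLK1 (0.66) and MKI67 (0.65). The smallest differences were those of KIF2C (0.23), NDC80 (0.24) and CDC20 (0.28). The other genes of the role panel differed by 0.63 (CCNA2), 0.62 (CDK1), 0.54 (AURKA), 0.50 (BUB1 and KIF11), 0.49 (CENPE), 0.47 (CCNB1), 0.46 (AURKB) and 0.36 (FOXM1). In SK-N-BE(2) 31 genes therefore had the order knockdown, overexpression control, overexpression, knockdown control from low to high. The knockdown group was the lowest for 44 genes and the knockdown control the highest for 41.

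In SH-SY5Y the controls were closer. Of the 47 genes, 17 were higher in the knockdown control (18.4% of tested genes) and 5 lower (17.8%), with a median of 0.10. Leaving out any 1 library of these controls lowered the counts to between 11 and 13 higher and to 4 lower. CDC20 differed most (0.57, 38.7 ± 3.03 against 25.7 ± 1.95 FPKM), followed by KIF20A (0.43), PRC1 (-0.41), ANLN (0.39) and HMMR (0.36). PRC1, SPC25 (-0.30), FOXM1 (-0.27), MAD2L1 (-0.19) and GTSE1 (-0.16) were lower in the knockdown control. CDK1 (0.12), CCNA2 (0.15), PLK1 (0.22), AURKA (0.18), BUB1 (0.28) and TOP2A (0.17) were higher, whereas CCNB1 (0.01), AURKB (0.05), CENPE (0.23), KIF11 (0.02) and MKI67 (-0.01) were not called. The values nearest 0 were those of CDCA8 (-0.0038), CCNB1 and KIF4A (-0.01). The knockdown group was the lowest of the 4 groups for all 47 genes of this line, and the highest group was overexpression for 24 and the knockdown control for 23.

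Overexpression of NDUFS6 went with small rises of part of the set in SK-N-BE(2). Against its own control 26 of 47 genes rose and 1 fell, beside 12.9% and 16.8% of tested genes (29.7% in either direction), and the median log2 change was 0.18. Without overlap of the libraries, 29 genes were higher (15.7% of tested genes) and 0 lower. PTTG1 rose most, from 24.6, 31.6 and 27.2 FPKM in the controls to 35.6, 51.5 and 43.6 (0.62, SE 0.104, limma adjusted p = 0.000238). CCNB1 rose from 42.6, 43.6 and 43.2 to 59.3, 68.6 and 63.6 FPKM (0.55, SE 0.0668, limma adjusted p = 7.73e-06). CENPA (0.53), UBE2C (0.50) and NEK2 (0.49) followed, and PLK1 (0.44), AURKB (0.47), CDC20 (0.37), TOP2A (0.26), AURKA (0.22), CCNA2 (0.17) and CDK1 (0.14) were also called. By role, 10 of 12 kinases and cyclins and all 4 checkpoint and APC/C genes rose, against 3 of 9 kinesins, 3 of 7 kinetochore and centromere genes and 3 of 9 spindle and midzone genes.

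ANLN was the gene that fell, from 17.8, 16.6 and 17.8 to 16.7, 13.5 and 15.7 FPKM (-0.18, SE 0.0588, limma adjusted p = 0.0296), with overlapping libraries. MKI67 (-0.26), FOXM1 (0.11), KIF11 (0.10), CENPE (0.06) and BUB1 (-0.02) were not called, and BUB1, NDC80 (-0.02) and KIF14 (0.02) were nearest to 0. MKI67 varied most within the group, with 54.6, 28.6 and 38.3 FPKM in the overexpression libraries and 50.1, 40.05 and 52.2 in the controls. ASPM (31.9, 17.3 and 22.2 FPKM) and CENPF (85.6, 56.6 and 69.6) had the same order of the 3 libraries. Without the first of these overexpression libraries, 27 genes were called higher and 5 lower, the latter including MKI67 (-0.50) and ASPM (-0.46). The share of all tested genes called without that library is not given. MKI67, CENPF and ASPM are the 3 longest transcripts of the set, and the changes of the 47 genes in this comparison went with exonic length (Pearson r of -0.70 and Spearman rho of -0.67 between log2 change and log2 length over 47 genes, a relation looked at after the values were seen). Of the 33 genes with under 5000 exonic bases in GENCODE release 29, 23 rose, with a median of 0.27. Of the 14 longer genes, 3 rose and 1 fell, with a median of 0.05. The mean log2 level of the longer minus the shorter genes was -0.12, -0.51 and -0.30 in the overexpression libraries and -0.03, -0.15 and -0.02 in their controls. In the other 3 construct comparisons the same Pearson r lay between -0.26 and -0.04. The part of transcript length in the result was not tested.

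Against the knockdown control the direction in SK-N-BE(2) was the opposite: 33 genes were lower after overexpression, 1 was higher and the median was -0.28. Of all tested genes, 3175 were lower and 20.3% higher. PTTG1 was the gene that stayed higher (0.29). AURKB, CCNB1, CCNB2, CDC20, CDC25C, CDCA3, CDCA8, HMMR, KIF2C, NEK2, PRC1, TPX2 and UBE2C were not called. With only the overexpression group and its own control in the fit, 15 genes were called higher and 0 lower. The share of all tested genes called in that fit is not given, so this count has no background.

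In SH-SY5Y, where NDUFS6 rose far more, fewer of the 47 genes were called. There 16 of 47 rose and 1 fell, beside 15.4% and 17.2% of tested genes, and the median log2 change was 0.06. Leaving out any 1 library of these groups gave 11 to 13 genes higher and 1 lower. Without overlap of the libraries, 21 genes were higher and 7 lower (23.0% and 25.2% of tested genes). AURKA rose from 12.0, 13.2 and 11.8 to 17.0, 15.9 and 17.5 FPKM (0.42, SE 0.0569, limma adjusted p = 1.3e-05). KIF18B rose from 11.6, 11.5 and 12.2 to 14.9, 15.4 and 16.6 FPKM (0.38), and CCNA2 from 28.7, 28.9 and 27.8 to 36.6, 35.8 and 36.9 (0.34). The overexpression libraries of these 3 genes lay above all 3 controls. BIRC5 (0.33), PLK1 (0.29), KIF11 (0.26), CCNB1 (0.23), CDC20 (0.23) and FOXM1 (0.16) were also called. CDC25C fell from 5.15, 5.34 and 4.86 to 3.91, 3.80 and 4.33 FPKM (-0.29, SE 0.0678, limma adjusted p = 0.00265). CDK1 (0.10), AURKB (0.11), BUB1 (0.04), CENPE (-0.05), MKI67 (0.01) and TOP2A (-0.12) were not called. NUF2, SPC25 and NUSAP1 had the changes nearest to 0, none above 0.01. Against the knockdown control 14 genes were called higher and 16 lower (26.5% and 28.9% of tested genes), with a median of 0.02.

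The interaction of line and overexpression was called for 19 genes, beside 36.8% of tested genes. The change was higher in SK-N-BE(2) for 16 (18.3% of tested genes) and lower for 3 (18.5%). The latter count was 7 without the first overexpression library and 5 without the second overexpression control library of SK-N-BE(2). With each library scaled to a fixed sum it was 9, and the median difference over the 47 genes turned from 0.08 to -0.0046. PTTG1 (0.78, SE 0.147, limma adjusted p = 0.000378), CDC25C (0.67), CENPA (0.61) and NEK2 (0.55) had the widest differences. KIF18B (-0.35), KIF20B (-0.31) and BUB1B (-0.28) stood on the other side. CCNB1 (0.32), AURKB (0.36) and TOP2A (0.38) were called as well, whereas CDK1 (0.04), CCNA2 (-0.18), PLK1 (0.15), AURKA (-0.19), BUB1 (-0.05), CDC20 (0.14), CENPE (0.10), KIF11 (-0.16), MKI67 (-0.27) and FOXM1 (-0.05) were not.

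Between the lines themselves, with the 6 controls of each pooled, 28 genes were higher in SK-N-BE(2) and 9 lower (33.5% and 43.8% of tested genes, 77.3% in all), with a median of 0.13. CDCA3 (0.69), KIF4A (-0.50), KIF20A (0.48), NEK2 (-0.48) and CCNB2 (0.37) differed most. Of the role panel, CCNA2 (0.29), AURKA (0.27), CCNB1 (0.26), FOXM1 (0.20), PLK1 (0.14), KIF11 (0.13), BUB1 (0.12) and CDK1 (0.09) were higher in SK-N-BE(2). AURKB (-0.05), TOP2A (-0.04), MKI67 (0.03), CDC20 (0.04), CENPE (0.11), UBE2C (0.04), CENPF (-0.0021), ASPM (0.01), KIF23 (0.03) and PRC1 (0.03) were not called. MYCN itself was at 1102 ± 1.79 FPKM in the knockdown control of SK-N-BE(2) and at 2.00 ± 0.286 in that of SH-SY5Y.

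Genes that work beside the 47 were read from 8 lists. After knockdown they are given against the matching control only, and the choice of control mattered for the 47 genes in SK-N-BE(2). Of 32 further spindle, midzone and cytokinesis genes, 28 fell and 2 rose after knockdown in SK-N-BE(2) and 29 fell in SH-SY5Y. Of all tested genes, 28.3% fell and 27.4% rose in SK-N-BE(2), and 29.6% fell and 26.3% rose in SH-SY5Y, and the knockdown counts of each list below are to be read against these shares. INCENP, the scaffold of the chromosomal passenger complex, fell most in the former (-1.38, limma adjusted p = 1.4e-10), from 27.3, 26.3 and 25.8 to 8.65, 9.32 and 10.9 FPKM, followed by KIFC1 (-1.16) and CDCA2 (-1.06). In the latter DEPDC1B (-1.54), CEP55 (-1.36), which recruits the abscission machinery, and CDCA2 (-1.15) led. Of 20 condensin and cohesin genes 16 fell in each line. ESPL1, which encodes separase (-0.999), CDCA5, which encodes sororin (-0.89), and NCAPH (-0.85) led in SK-N-BE(2), and the shugoshins SGO1 (-1.07) and SGO2 (-0.99) with NCAPG (-0.98) in SH-SY5Y.

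Other kinetochore genes split more in SK-N-BE(2): of 29, 17 fell and 3 rose, and MIS12, an inner anchor of the outer kinetochore, rose by 1.14, while SPC24 fell (-1.09). In SH-SY5Y 23 fell and 1 rose, led by KNL1 (-1.32), CENPH (-1.21) and CENPI (-0.84). Of the 14 tested genes around the CDK1 switch, 9 fell and 2 rose in SK-N-BE(2), and 11 fell in SH-SY5Y. BORA (-1.05 and -1.01), CCNF (-1.02 and -1.15) and CKS2 (-0.67 and -1.13) fell in both lines. The 7 further spindle checkpoint genes had 2 rises and 2 falls in SK-N-BE(2) and 3 falls in SH-SY5Y, near the background of 28.3% lower and 27.4% higher in the former. BUB3 (-0.55 and -0.46) and TRIP13 (-0.23 and -0.26) fell in both, and MAD2L2, a relative of MAD2 in DNA repair, changed in opposite directions (0.71 and -0.72). Among 18 APC/C genes, 11 fell and 2 rose in SK-N-BE(2), led by ANAPC15 (-0.70), ANAPC11 (-0.62) and FBXO5 (-0.58). In SH-SY5Y 6 fell, near the 29.6% of all tested genes, and 2 rose, with UBE2S (-1.34), UBE2D1 (-0.64) and ANAPC13 (0.61) furthest from 0. The median over the 18 genes was -0.23 in SK-N-BE(2) and -0.02 in SH-SY5Y.

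**Figure D5:**
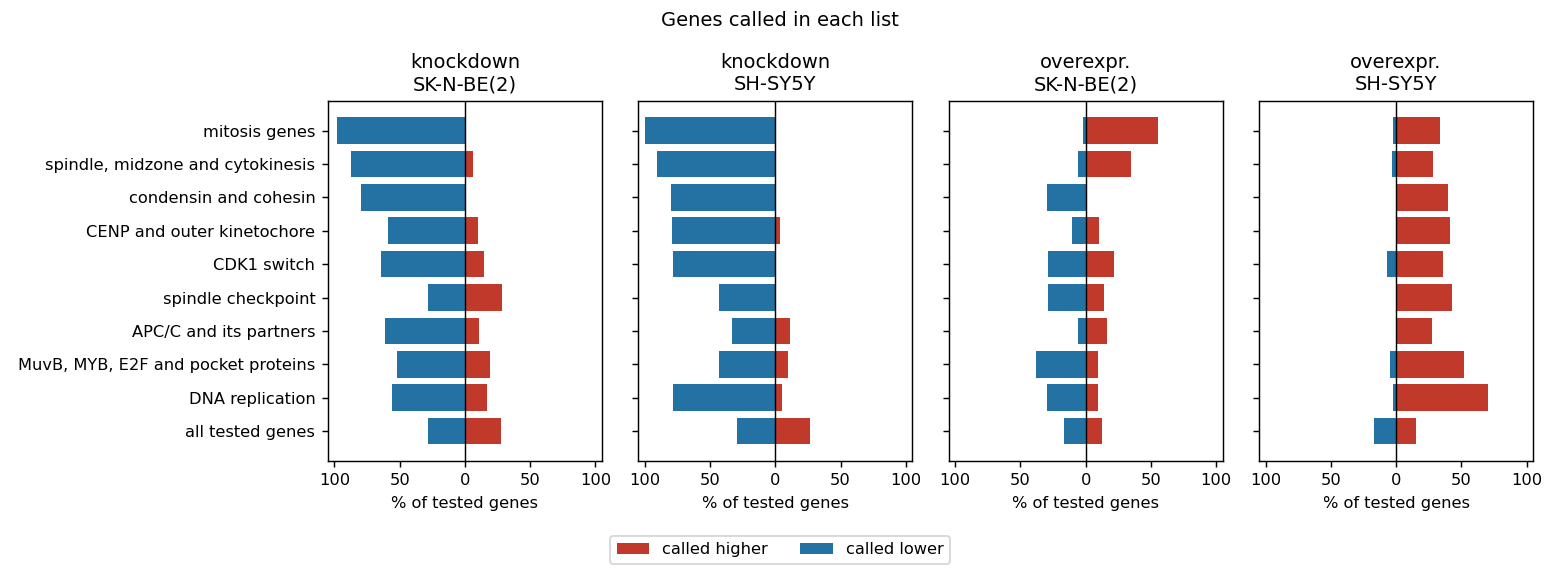
Share of tested genes called higher (red, to the right) and lower (blue, to the left) in the 47 mitosis genes, in 8 related lists and in all 15903 tested genes, for knockdown and overexpression in each line. After knockdown, 46 and 47 of the 47 mitosis genes are called lower, and after overexpression in SH-SY5Y the DNA replication list has the largest red bar, with 29 of 41 genes.

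DNA replication genes act in S phase. Of 41, 23 fell and 7 rose after knockdown in SK-N-BE(2), beside 28.3% and 27.4% of tested genes, with CDC6 (1.16), POLD1 (-0.70) and MCM5 (0.62) furthest from 0 and a median of -0.14. In SH-SY5Y 32 fell and 2 rose (median -0.42), beside 29.6% and 26.3%, led by PRIM1 (-0.88), CDC45 (-0.80) and RFC5 (-0.74). After overexpression 29 of the 41 rose in SH-SY5Y (median 0.26), where 15.4% of tested genes did, with RRM2 (0.61), CCNE2 (0.55) and TYMS (0.53) first. In SK-N-BE(2) 4 rose and 12 fell, beside 12.9% and 16.8% of tested genes, with CCNE2 (-0.63), CDT1 (0.47) and MCM6 (-0.33) first. Of the other lists, 11 of 32 spindle genes rose after overexpression in SK-N-BE(2) (12.9% of tested genes), including PIMREG (0.35), HAUS4 (0.35) and SPAG5 (0.31), and 2 fell. Against the knockdown control 0 of these 32 rose and 22 fell. Against its own control, overexpression in SK-N-BE(2) lowered 6 of 20 condensin and cohesin genes (16.8% of tested genes), including STAG1 (-0.30), WAPL (-0.28) and PDS5B (-0.26), and 0 rose. In SH-SY5Y 12 of 29 kinetochore genes rose and 0 fell (15.4% and 17.2% of tested genes), including PMF1 (0.86), CENPN (0.51) and ZWINT (0.47). Of the condensin and cohesin genes 8 of 20 rose there and 0 fell, with STAG1 (0.66), NCAPH2 (0.49) and SMC2 (0.40) first.

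Known regulators of the set were read as single genes, against the matching control only. CDKN1A, which encodes the CDK inhibitor p21, was at 16.5, 12.2 and 11.7 FPKM after knockdown and 1.36, 1.16 and 0.561 in the controls of SK-N-BE(2) (log2 change 2.84, limma adjusted p = 4.57e-13). In SH-SY5Y it was at 69.9, 70.4 and 86.5 FPKM against 51.0, 47.01 and 45.5 (0.64, limma adjusted p = 0.000299). The libraries did not overlap in either line. CDKN1A rose more in SK-N-BE(2), with a line difference of 2.20 (limma adjusted p = 4.17e-09), whereas the median fall of the mitosis genes was smaller there. The part of CDKN1A in that fall was not tested. After overexpression the log2 change of CDKN1A was -0.35 in SK-N-BE(2) and -0.80 in SH-SY5Y. The line difference of overexpression, 0.45, was not called (limma adjusted p = 0.0659). MYCN fell after knockdown in SK-N-BE(2), from 1101, 1104 and 1101 to 431, 608 and 528 FPKM (-1.09, limma adjusted p = 1.33e-07). In SH-SY5Y, where its level is low, it fell from 2.26, 2.04 and 1.70 to 1.15, 1.84 and 0.868 FPKM (-0.41, limma adjusted p = 0.00553), with overlapping libraries. MYBL2, which encodes B-MYB, had 39.0 ± 3.83 FPKM after knockdown and 42.5 ± 1.33 in the controls of SK-N-BE(2), and fell in SH-SY5Y from 50.1 ± 0.971 to 26.5 ± 1.498 FPKM (-0.89). E2F1, the activator of G1/S genes, was higher after knockdown in SK-N-BE(2) (19.0 ± 1.54 against 14.6 ± 0.460 FPKM) and lower in SH-SY5Y (11.1 ± 0.822 against 15.6 ± 0.841). Among 21 genes of MuvB, the MYB and E2F families and the pocket proteins, 11 fell and 4 rose in SK-N-BE(2), beside 28.3% and 27.4% of tested genes, led by E2F8 (-1.04), NFYA (-0.95) and TFDP1 (-0.68). In SH-SY5Y 9 fell and 2 rose, beside 29.6% and 26.3%, with MYBL2, E2F2 (-0.68) and E2F8 (-0.66) first.

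Markers of other cells were read beside the set. After knockdown in SH-SY5Y, all 5 tested stroma markers of 6 rose, and their summed level was 227 to 239 FPKM against 95.8 to 99.2 in the controls and 22.6 to 24.9 in the overexpression control. COL1A2, a defining fibroblast collagen, stayed below 0.901 FPKM in all 24 libraries, while DCN, LUM and COL3A1 carried the rise. CD68, a lysosomal marker of macrophages, rose to 8.59, 10.1 and 11.6 FPKM from 1.68, 1.68 and 2.32, and the leukocyte marker PTPRC stayed below 0.143. In SK-N-BE(2) knockdown, 7 of the 8 adrenergic markers fell, including HAND2 (-1.38) and ISL1 (-1.30), and the stroma sum was 139 to 161 FPKM against 119 to 125. The part of these markers in the fall of the mitosis genes was not tested.

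Some values of the set are less certain than the rest. KIF4A has the near-identical copy KIF4B, and PTTG1 has PTTG2 and PTTG3P. The copies reached at most 0.246, 0.0974 and 0.257 FPKM in any library and were not tested, but how the counting divided shared reads is not stated in the labels or processing notes. In GENCODE release 29, exons of BUB1B, CENPA, NUSAP1 and PRC1 are shared on the same strand with another gene record (BUB1B-PAK6, SLC35F6, AC087721.2 and AC068831.7), so part of their signal may belong to those records. The spread within a group also differed: the median SD of log2(FPKM + 1) over the 47 genes was 0.03 in both knockdown control groups, 0.12 in the SK-N-BE(2) knockdown group and 0.10 in the SK-N-BE(2) overexpression group. The single model uses 1 estimate of the spread per gene for all groups.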

How the data were processed

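RNA extracted with TRIzol had been made into 24 strand-specific TruSeq libraries and sequenced on an Illumina NovaSeq, per the labels' protocols. The submitters' processing notes name FastQC 0.11.2, STAR, StringTie 1.3.1c and hg38. The deposited values are FPKM per gene, made by the authors. Reads per library are unknown, so no counting error is given.

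FPKM were transformed to log2(FPKM + 1) and fitted with limma 3.58.1 (R 4.3.3; trended, robust) in 1 model of 8 groups with 16 residual degrees of freedom. Genes reaching 1 FPKM in 3 or more libraries entered the model (15903). The two-sided p-values were adjusted by Benjamini-Hochberg over all of them, with calls under 0.05; a fold change on this log2 scale understates that of low genes. Fold values are ratios of mean FPKM. The fit was tried on simulated data with 200 changed genes and the same spread in every group. The data themselves have far more called genes and unequal spreads, which that trial does not cover.

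The members and lists were chosen with earlier results of these data known. Text genes followed a rule: NDUFS6, every member once, a panel of 13 role genes in each comparison, the 5 called members with the largest and 3 with the smallest changes, members outside the common call, 4 per direction of each line difference, up to 3 called genes per other list, copies, and 4 regulators. Of the genes this rule names, 2 are not reported here. Promoters were printed for up to 6 panel genes holding both motifs. Length relations and the spread within groups were chosen after the values were seen. Alternatives were another pseudocount, filters, scalings, moderation, groups fitted, control, a replicate block and leaving out each library.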

Additional observations from a re-analysis of the deposited data

Results flagged for a closer look

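These results are listed because the difference between the 2 lines was itself called by limma's interaction test (Benjamini-Hochberg adjusted p under 0.05). For knockdown the difference, SK-N-BE(2) minus SH-SY5Y on the log2 scale, was called in 28 mitosis genes with a smaller fall in SK-N-BE(2) and in 8 with a larger one. Those with a smaller fall included the spindle gene HMMR (1.10), the kinases NEK2 (1.05), TTK (0.81) and BUB1 (0.47), the APC/C activator CDC20 (0.91), cyclin CCNB1 (0.46), the kinetochore motor CENPE (0.46) and TOP2A (0.45). Those with a larger fall included CDCA3 (-0.62), the kinesin KIF18B (-0.55), the passenger genes AURKB (-0.38) and BIRC5 (-0.33), and FOXM1 (-0.30).

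For overexpression the difference was called in 16 genes with a higher change in SK-N-BE(2) and in 3 with a lower one. The former included securin PTTG1 (0.78), CDC25C (0.67), CENPA (0.61), NEK2 (0.55), TOP2A (0.38), AURKB (0.36) and CCNB1 (0.32). The latter were KIF18B (-0.35), KIF20B (-0.31) and BUB1B (-0.28).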

How the results depend on the processing

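The counts of genes called lower after knockdown were 46 in SK-N-BE(2) and 47 in SH-SY5Y without any 1 library, with medians from -0.89 to -0.77 and from -1.10 to -1.07. With fixed-sum (TPM) scaling the knockdown medians were -0.73 and -1.18, the overexpression median in SK-N-BE(2) was 0.12 with 2 genes lower, the line difference of knockdown had a median of 0.49 with 2 genes lower, that of overexpression had a median of -0.0046 with 9 lower, and the SK-N-BE(2) controls had a median of 0.40. Median of ratios scaling gave -1.05 for knockdown in SH-SY5Y, 0.21 with 0 genes lower for overexpression in SK-N-BE(2), and 0.21 between the lines. A pseudocount of 0.1 gave a knockdown median of -1.15 in SH-SY5Y. For overexpression in SK-N-BE(2), no filter gave 0 genes lower, and the fit of only its 2 groups gave 15 higher and 0 lower. For overexpression in SH-SY5Y, a mean of at least 5 FPKM gave 0 lower and the fit of only its 2 groups gave 4. Shares of all tested genes are given for the main fit and the other control only.

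Leaving out each library gave 21 to 27 genes higher and 0 to 5 lower for overexpression in SK-N-BE(2), with medians of 0.16 to 0.19, and 11 to 13 higher and 1 lower in SH-SY5Y. The line difference of knockdown had 24 to 29 genes higher, 7 to 9 lower and medians of 0.28 to 0.39, and that of overexpression 14 to 16, 2 to 7 and 0.043 to 0.11. The SK-N-BE(2) controls had 45 to 46 genes higher, and the SH-SY5Y controls 11 to 13 higher and 4 lower.

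With the other empty vector control, the knockdown medians were -0.32 in SK-N-BE(2) and -1.03 in SH-SY5Y. The overexpression median in SK-N-BE(2) turned to -0.28 with 1 gene higher and 33 lower, and SH-SY5Y had 16 lower. Among values called with either control, the knockdown values that turned sign were those of KIF18A (0.018) and HMMR (0.10). The overexpression values that turned in SK-N-BE(2) were those of CDK1 (-0.48), CCNA2 (-0.47), CCNB2 (-0.084), TTK (-0.41), MAD2L1 (-0.37), AURKA (-0.32), PLK1 (-0.23), CDC25C (-0.023), CENPA (-0.26), CENPE (-0.43), CENPF (-0.52), KIF11 (-0.40), KIF14 (-0.49), KIF18A (-0.48), KIF18B (-0.59), KIF20A (-0.22), KIF23 (-0.47), KIF4A (-0.28), TOP2A (-0.61), TPX2 (-0.056), NUSAP1 (-0.24), DLGAP5 (-0.33), HMMR (-0.16), NUF2 (-0.17), SPC25 (-0.45), NEK2 (-0.11), BIRC5 (-0.25), CDCA3 (-0.12), ECT2 (-0.42), FOXM1 (-0.25), HJURP (-0.29) and GTSE1 (-0.26). In SH-SY5Y they were those of BUB1 (-0.25), CDC20 (-0.34), KIF20A (-0.28), ANLN (-0.38) and HJURP (-0.12). Values called with neither control also turned, those of PRC1 after knockdown (0.12) and of PRC1 (-0.23) and CDCA8 (-0.17) after overexpression in SK-N-BE(2), and those of CDK1 (-0.022), KIF14 (-0.08), NUSAP1 (-0.04) and ECT2 (-0.09) after overexpression in SH-SY5Y. The cause was not tested.

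With the replicate number as a block, 46 and 47 genes were called lower after knockdown in SK-N-BE(2) and SH-SY5Y, and 27 and 16 higher after overexpression, with 1 lower in each. Deviations of libraries with the same number correlated at -0.03 to 0.01 in the knockdown comparisons and at -0.08 to 0.37 in the overexpression ones. The 0.37 belonged to the second overexpression library of SK-N-BE(2), whose highest correlation with a control library of another number was -0.17. For the first overexpression library of that line these values were 0.14 and 0.28. Whether libraries of the same number share more than the number was not tested.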
